A study of Homo sapiens with 2 samples.

Results

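Of the 21440 peaks called for mTOR in MDA-MB-231 cells, 937 had their centre in an L1HS, L1PA2, L1PA3 or L1PA4 element, the evolutionarily youngest subfamilies of the L1 retrotransposon. These peaks were found by the repeat name that the deposited annotation gives to the peak centre, with no use of the peak score, and they are called young L1 peaks below. They made up 4.37% of all peaks (exact Clopper-Pearson 95% interval 4.10 to 4.65%) and 12.8% of the 7337 peaks in the L1 family (12.02 to 13.6%). MDA-MB-231 is a human cell line established from a triple-negative breast cancer, kept here in medium with serum. The series holds 1 chromatin immunoprecipitation library made with an antibody against mTOR and 1 library of input chromatin without enrichment, and the peaks were called once for the mTOR library against the input. No other treatment, genotype or time point is named. The series asks, by its title, how PML, mTOR and RONIN act together in the nucleus on ribosomal genes and on senescence.

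L1 elements are retrotransposons that copy themselves through an RNA intermediate. A full-length copy has an internal promoter at its 5' end, a pair of open reading frames, of which the second encodes the endonuclease and reverse transcriptase, and a polyadenylated 3' end, but most copies in the genome are truncated at the 5' side. L1HS is the human-specific subfamily and the only one with copies still known to be mobile in people, and L1PA2, L1PA3 and L1PA4 are its successively older primate relatives. In somatic cells these copies are usually held silent by DNA methylation and histone H3 lysine 9 methylation, and in many cancers that silencing is partly lost. mTOR is a kinase that sets cell growth by the supply of nutrients and growth factors, and part of the cellular pool is found in the nucleus.

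All peaks come from 1 library, so peaks are not replicates, no condition can be compared and no test between groups of peaks was made. The intervals given with shares and medians cover counting error only. Since no difference was tested, overlapping intervals do not show that groups are alike. The peak score is a whole number used as deposited, without a stated scale, and only ranks peaks within this list. The depth of the library is unknown. No base sequence of the peaks is shown, since none of the 937 young L1 peaks overlapped a RefSeq promoter window on GRCh38.p14, the sequences used here. How much of the genome each subfamily occupies was not used, so the counts are not enrichments.

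L1PA4 and L1PA3 held most of the young L1 peaks. L1PA4 had 449 (47.9%, 44.7 to 51.2%), L1PA3 had 395 (42.2%, 39.0 to 45.4%), L1PA2 had 87 (9.28%, 7.504 to 11.3%) and L1HS had 6 (0.640%, 0.235 to 1.39%). Among the 123 L1 subfamily names in the peak list L1PA4 ranked 4 and L1PA3 ranked 5 by number of peaks, whereas L1PA2 ranked 23. Of the 3896 peaks in primate L1 elements, those named L1HS or L1P, the young subfamilies held 24.1% (22.7 to 25.4%). None of the 937 names carried a suffix for the part of the element, so the annotation does not tell the 5' from the 3' side of a copy.

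Young L1 peaks had low scores. Their scores ran from 13 to 784 with a median of 45 (95% interval from order statistics 45 to 48) and quartiles of 35 and 62. The 6400 other L1 peaks had a median of 61 (61 to 61) and quartiles of 41 and 97, and the median over all peaks was also 61. In the same order of age, the median was 46 for L1PA2 (43 to 53), 45 for L1PA3 (44 to 45) and 48 for L1PA4 (45 to 51). The intervals of these 3 subfamilies overlap. The next older subfamilies lay slightly higher, with 51 for L1PA5 (48 to 53), 54 for L1PA6 (53 to 60) and 53 for L1PA7 (51 to 53), while L1PA8 was at 48 (43 to 53). Of these, only the interval of L1PA6 lay wholly above that of L1PA4, and that of L1PA7 began at its upper end. Of the 67 other L1 names with 20 or more peaks, 0 had a median score below that of the young L1 peaks.

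**Figure D1:**
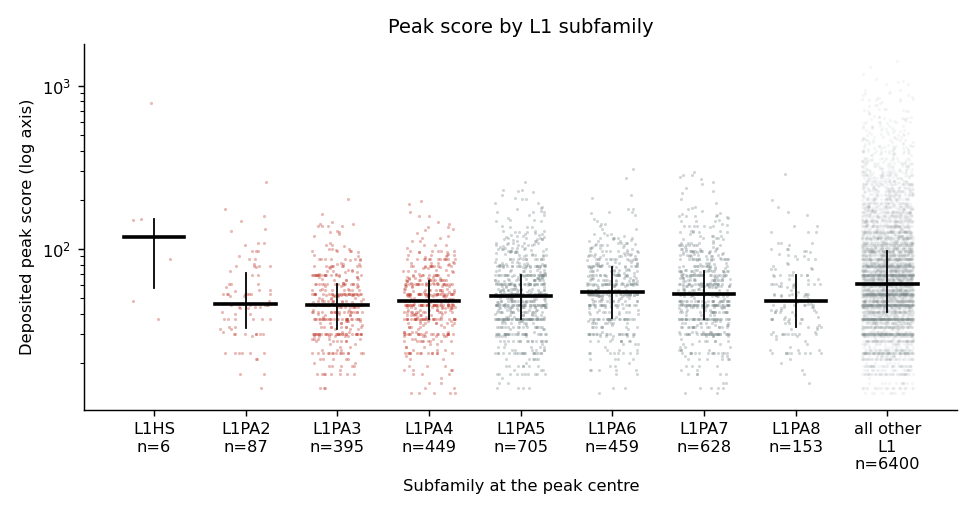
Deposited score of each peak (log axis) by the L1 subfamily at the peak centre, with the median as a thick bar and the quartiles as a thin line. The 4 subfamilies in red are the young ones, and "all other L1" includes L1PA5 to L1PA8. L1PA2, L1PA3 and L1PA4 have medians of 46, 45 and 48 against 61 for all other L1 peaks, and few of their points exceed 200.

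High scores were rare at young L1 elements. Of all 21440 peaks 10.0% reached a score of 200, the level that marks the top 10% of the list with ties kept. Of the young L1 peaks 3 of 937 did (0.320%, 0.0661 to 0.933%), and of the other L1 peaks 512 of 6400 (8%, 7.35 to 8.69%). L1PA5 to L1PA8, with L1PA8A counted among them, had 25 of 1979 (1.26%, 0.819 to 1.86%), whose interval overlaps that of the young L1 peaks. The lowest of the 3 scores was 202, and the next young L1 peak below the level had 196. A score of 100 or more was reached by 54 young L1 peaks (5.76%), against 24.0% of the other L1 peaks. At the other end, 74.9% of the young L1 peaks (72.0 to 77.7%) were at or below the median of all peaks, against 52.1% of the other L1 peaks (50.9 to 53.3%).

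Scores were often tied. The 937 young L1 peaks took 114 different scores, and 79 of them had exactly 45, 65 had 37, 61 had 53 and 59 had 30. The other L1 peaks shared the leading values, with 345 at 37, 305 at 45 and 287 at 53. The median of 45 is therefore the commonest value itself, and small differences between medians of this size are steps between tied values.

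The peaks were also narrow. Widths of the young L1 peaks ranged from 248 to 1448 bp, and their median was 325 bp (318 to 331 bp), against 374 bp (369 to 378 bp) for the other L1 peaks and 400 bp for all peaks. L1PA5 to L1PA8 had 339 bp (334 to 344 bp). A width of at most 300 bp was found in 39.1% of the young L1 peaks (35.9 to 42.3%) and 25.1% of the other L1 peaks (24.1 to 26.2%). L1PA5 to L1PA8 lay between, with 32.3% (30.3 to 34.5%), and their interval overlaps neither. A width over 500 bp was found in 13.4% of the young (11.3 to 15.8%) and 26.6% of the other L1 peaks (25.5 to 27.7%). Here L1PA5 to L1PA8 had 14.05% (12.5 to 15.7%). That interval overlaps the young one and lies below that of the other L1 peaks, so the low share of wide peaks was not particular to young L1 elements. Only 10 young L1 peaks were wider than 1000 bp. By subfamily the median was 347 bp in L1PA2 (308 to 364 bp), 324 bp in L1PA3 (311 to 341 bp) and 323 bp in L1PA4 (312 to 331 bp), with overlapping intervals.

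The median score rose less with peak width at young L1 elements than at the rest of the family. In peaks of up to 300 bp the median score was 44 both for the young L1 peaks (41 to 45, 366 peaks) and for the other L1 peaks (42 to 45, 1607 peaks). Over 300 and up to 400 bp it was 46 (45 to 51) against 56 (53 to 58), and over 400 and up to 500 bp it was 53 (45 to 62) against 73 (69 to 77). Above 500 bp the young L1 peaks stayed at 53 (47 to 64, 126 peaks), while the other L1 peaks reached 118 (112 to 126, 1701 peaks). The lower medians were found in the 3 wider classes, and in the narrowest class the intervals overlap. L1PA5 to L1PA8 lay between, at 53 (53 to 57), 64 (60 to 69) and 69 (64 to 78) in these 3 classes. Their interval overlaps the young one over 400 and up to 500 bp, and meets it at 64 above 500 bp. In that class the median width was 610 bp for the young L1 peaks and 654 bp for the other L1 peaks, and 2 of 126 young L1 peaks (1.59%, 0.193 to 5.62%) against 475 of 1701 other L1 peaks (27.9%, 25.8 to 30.1%) reached 200. Across peaks Spearman's rho of score and width was 0.24 over the 937 young L1 peaks and 0.57 over the 6400 others, given as a description because all points share 1 library.

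**Figure D2:**
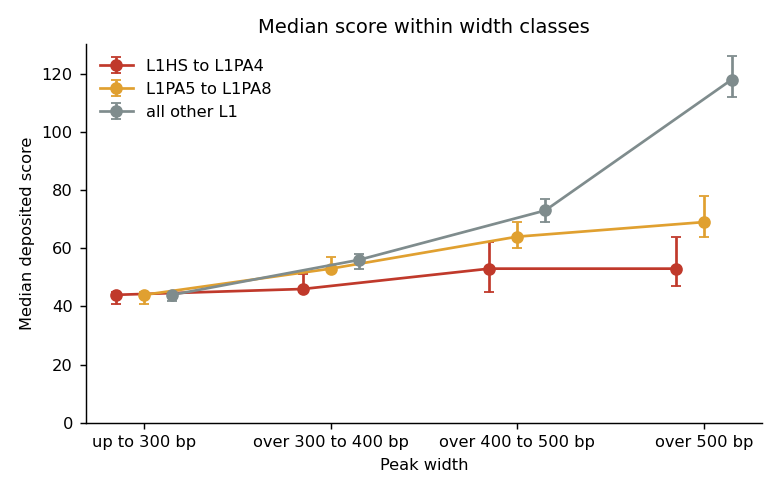
Median deposited score of L1 peaks in 4 classes of peak width, for L1HS to L1PA4, L1PA5 to L1PA8 and all other L1 peaks (which include L1PA5 to L1PA8), with 95% intervals from order statistics. The 3 groups meet at 44 in the narrowest class and separate to 53, 69 and 118 above 500 bp.

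The 6 L1HS peaks varied most. Their scores were 784, 153, 149, 87, 48 and 37. The highest lay between genes on the X chromosome (chrX:141426343-141427132, hg38), 790 bp wide, with its centre 76112 bp upstream of SPANXA2-OT1, a non-coding transcript beside genes of the SPANX family of testis proteins. It ranked 168 among all peaks, and the next young L1 peak, with 257, ranked 1455. The other 7 young L1 peaks of the X chromosome had scores from 23 to 78, so this peak stood alone there. The peaks of 153 and 149 lay side by side in intron 2 of ST6GALNAC5, a sialyltransferase gene (chr1:77001487-77002255 and chr1:77000714-77001143), and their centres were 943 bp apart. Whether both belong to 1 copy was not tested. The peak of 87 (chr1:231645777-231646504) lay in intron 1 of DISC1, a gene named for its disruption in schizophrenia. The peak of 48 (chr3:164409864-164410127) was intergenic, 238439 bp from MIR1263, and that of 37 (chr3:113923458-113923807) was in intron 5 of GRAMD1C, a gene for a lipid transfer protein. The median of the 6 was 118, with an interval that spans all of them (37 to 784), so L1HS is not told apart from the other subfamilies.

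The strongest peaks of the other subfamilies lay on 6 chromosomes. In L1PA2 the first was in intron 8 of XRRA1, with a score of 257 (chr11:74877127-74877908), followed by 174 in intron 4 of SCARF1, a scavenger receptor gene (chr17:1642372-1642739). The L1PA3 peak of 202 was intergenic, with its centre 39772 bp upstream of HIPK3, a protein kinase gene (chr11:33216699-33217102), and the next, with 164, was in intron 2 of LRRC8C, a volume-regulated anion channel subunit (chr1:89704655-89705242). L1PA4 led with 196 at a site 118898 bp upstream of FAT1, an atypical cadherin gene (chr4:186842454-186843055), and 188 at a site 17767 bp downstream of the start of ABHD4 (chr14:22615657-22616353). The remaining top 10 were an L1PA4 peak of 168 in intron 1 of ME3, the mitochondrial malic enzyme gene, an L1PA4 peak of 158 in intron 7 of RAD51B, a recombination repair gene, and an L1PA4 peak of 158 that was 83043 bp upstream of PCED1B. Of these 10 peaks 3 were on chromosome 11 and 2 on chromosome 14.

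The widest young L1 peaks were not the highest. The 5 widest had scores of 65, 78, 141, 87 and 137 at widths of 1448, 1444, 1361, 1294 and 1232 bp. In that order they lay in intron 2 of DPYD-AS1, an antisense transcript (chr1:97290303-97291750), in intron 1 of IQCJ-SCHIP1, a read-through gene (chr3:159085175-159086618), in intron 3 of TYMS, the thymidylate synthase gene (chr18:662670-664030), between genes 213149 bp from LINC00644 (chr14:62352476-62353769), and in intron 8 of CADPS, a regulator of vesicle release (chr3:62579818-62581049). Of these 4 were L1PA3 and the one near LINC00644 was L1PA4.

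Introns held 462 of the young L1 peaks (49.3%, 46.1 to 52.6%) and intergenic sequence the other 475 (50.7%, 47.4 to 53.9%). The other L1 peaks had 48.3% (47.1 to 49.6%) in introns, and the intervals overlap. That no L1 peak was in a promoter, exon or gene end class is a property of the annotation: of the 8 classes only introns and intergenic sequence carried repeat names for any family. By subfamily the intronic share was 56.3% in L1PA2 (45.3 to 66.9%), 49.1% in L1PA3 (44.1 to 54.2%) and 47.9% in L1PA4 (43.2 to 52.6%), not told apart by their intervals. Median scores were 46.5 in introns (45 to 51) and 45 between genes (44 to 47), with overlapping intervals.

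Young L1 peaks lay farther from start sites than the rest of the family. The median distance from the peak centre to the nearest annotated start was 55732 bp (48817 to 61077 bp), against 41148 bp (39705 to 42835 bp) for the other L1 peaks. L1PA5 to L1PA8 had 46810 bp (43542 to 49177 bp), whose interval overlaps the young one. Since only intronic and intergenic peaks carry repeat names, peaks in the promoter class could not be counted as L1, and the fitting background is the 17453 intronic and intergenic peaks of any kind, whose median was 31440 bp (30589 to 32238 bp). Within 10 kb of a start lay 83 young L1 peaks (8.86%, 7.12 to 10.9%), against 14.4% of the other L1 peaks (13.6 to 15.3%) and 22.5% of all intronic and intergenic peaks (21.9 to 23.2%). For L1PA5 to L1PA8 that share was 11.7% (10.3 to 13.2%), which overlaps the young interval. More than 100 kb away lay 31.2% (28.2 to 34.2%) and 24.3% (23.2 to 25.3%) of the young and other L1 peaks. In L1PA5 to L1PA8 it was 26.8% (24.9 to 28.8%), which again overlaps the young interval. The order of distance was not by age alone, since L1PA7 had a median of 56140.5 bp (49200 to 64497 bp) and L1PA5 41974 bp (37602 to 47603 bp). The median of L1PA7 was thus next to those of L1PA3 (53989 bp) and L1PA4 (55705 bp).

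**Figure D3:**
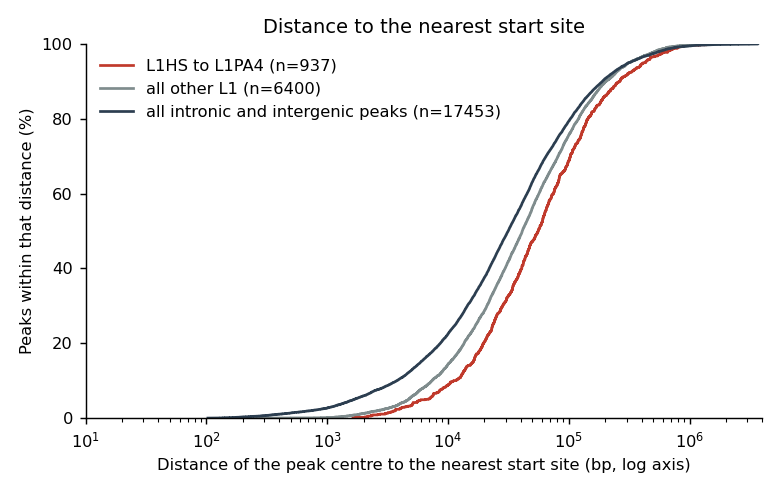
Cumulative share of peaks within a given distance of the nearest start site (bp, log axis, distances under 10 bp drawn at 10) for L1HS to L1PA4, all other L1 peaks and all intronic and intergenic peaks. The young L1 curve lies to the right of the other L1 curve, with medians of 55732 and 41148 bp, and is at 0 within 1 kb.

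No young L1 centre was within 1 kb of a start site. This count is largely set by the annotation, in which none of the 2797 peaks of the promoter class carries a repeat name, and it gives no comparison. The exact interval of 0 of 937 reaches 0.393%, a limit of 3 counts gives 0.320%, and 9 of the 6400 other L1 peaks were that near. The nearest were an L1PA3 peak of score 106 at 1635 bp in intron 1 of LINC01776, an L1PA3 peak of score 45 at 1699 bp in intron 1 of ENPP4, an ectonucleotidase gene (chr6:46131361-46132015), and L1PA4 peaks upstream of PELI3 (score 41, 2047 bp), MYO1A (score 69, 2160 bp) and the olfactory receptor gene OR4C15 (score 23, 2163 bp). In all 10 young L1 peaks lay within 3 kb. Their scores ran from 23 to 109.

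The deposited nearest gene of the young L1 peaks was protein-coding for 607 (64.8%, 61.6 to 67.8%), non-coding RNA for 287 (30.6%, 27.7 to 33.7%) and a pseudogene for 33 (3.52%, 2.44 to 4.91%). Among other L1 peaks protein-coding genes had 68.4% (67.3 to 69.6%) and non-coding RNA 27.8% (26.7 to 28.9%). Both pairs of intervals overlap. Over all peaks the protein-coding share was 72.3% (71.7 to 72.9%), and over intronic and intergenic peaks 69.1% (68.4 to 69.8%), both with intervals above that of the young L1 peaks. L1PA2 had the lowest protein-coding share of the larger subfamilies, 47 of 87 (54.0%, 43.0 to 64.8%), beside 65.8% in L1PA3 (60.9 to 70.5%) and 66.4% in L1PA4 (61.8 to 70.7%). By the sign of the deposited distance, 42.2% of the young L1 centres (39.0 to 45.4%) were upstream of the nearest start, against 44.3% of the other L1 peaks (43.1 to 45.5%), and the intervals overlap. By subfamily it was 5 of 6 in L1HS (83.3%, 35.9 to 99.6%), 25 of 87 in L1PA2 (28.7%, 19.5 to 39.4%), 42.5% in L1PA3 (37.6 to 47.6%) and 43.9% in L1PA4 (39.2 to 48.6%). Only the L1PA2 interval does not reach that of the other L1 peaks.

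Host genes of young L1 peaks were longer than those of the other L1 peaks. The intron's transcript matched a gene for 460 of the 462 intronic young L1 peaks, giving 393 genes, of which 50 held 2 or more of these peaks. Counted once per gene, the median length of the host was 168 kb (151 to 200 kb), against 125 kb (121 to 132 kb) for the 2183 genes hosting other L1 peaks. For L1PA5 to L1PA8 it was 156 kb (140 to 169 kb), whose interval overlaps the young one. Host length over all intronic peaks was not computed. Protein-coding hosts had 85.9% of the intronic young L1 peaks (82.3 to 88.9%) and 87.04% of the others (85.8 to 88.2%). Intron 1 held 21.6% of the young peaks (18.0 to 25.7%) and 28.2% of the others (26.6 to 29.8%). In L1PA5 to L1PA8 it held 22.98% (20.4 to 25.8%), which overlaps the young interval. The host was also the nearest gene by start site in only 59.3% of the young peaks, so the nearest gene and the gene around the element often differ.

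ME3 carried the most young L1 peaks. Its 6 peaks, spread over 86527261 to 86655974 on chromosome 11, were L1PA4 in 4 cases, with scores of 131, 46, 168 and 77, L1PA2 with 51 and L1PA3 with 33. They lay in introns 1 and 3. SCFD2, a gene for a Sec1 family protein of vesicle traffic, had 4, with 63, 58, 64 and 59, and no other L1 peak. SAMD12, whose intronic repeat expansion causes a familial myoclonic epilepsy, had 4 between 27 and 57, and likewise no other L1 peak. Another 9 genes had 3 each, and the first 7 by name were ADK (adenosine kinase), CDK14 (a cyclin-dependent kinase), DST (the cytolinker dystonin), EYS (a photoreceptor protein), FBXL13 (an F-box protein), MNAT1 (a subunit of the CDK-activating kinase) and NOVA1-DT, a divergent transcript of the splicing factor gene NOVA1. All 3 of the NOVA1-DT peaks were L1PA2, with scores of 78, 45 and 128 (the first at chr14:26634715-26635035). Among these 10 hosts EYS was the longest with 1987 kb and NOVA1-DT the shortest with 208 kb.

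Some peaks formed tight groups. Linking young L1 centres at most 50 kb apart gave 865 loci, of which 808 held a single peak, 44 a pair and 13 at least 3. The largest group had 5 peaks at LINC01776 on chromosome 1, where L1PA4 peaks of 61, 37 and 38 upstream of the start preceded L1PA3 peaks of 106 and 109 in intron 1 (chr1:98212023-98212669 and chr1:98213160-98213509). Near BBS10, a chaperonin-like gene mutated in Bardet-Biedl syndrome, 3 L1PA3 peaks of 76, 56 and 69 lay within 5937 bp (chr12:76319556-76325492). Between CCN1 and ZNHIT6 there were 3 L1PA3 peaks of 40, 41 and 47 within 6506 bp (chr1:85641763-85648268). In intron 4 of QSER1 an L1PA4 peak of 59 and L1PA3 peaks of 48 and 69 lay within 9589 bp. The spans near BBS10 and between CCN1 and ZNHIT6 are about the length of a full L1 copy, and whether their peaks share 1 element was not tested.

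Peaks close together mostly carried the same subfamily name. Of the young L1 peaks 110 (11.7%, 9.75 to 13.98%) had another L1 peak centred within 6 kb, against 9.16% of the other L1 peaks (8.46 to 9.89%), and those intervals overlap. The nearest such partner was in the same subfamily for 65 of the 110 (59.1%, 49.3 to 68.4%), which overlaps the 64.7% (57.9 to 71.0%) of L1PA5 to L1PA8. Another 5 partners were young L1 of another subfamily by name, 16 were L1PA5 to L1PA8 and 24 were older. Consecutive young L1 centres were at most 1500 bp apart in 20 cases. These gaps had a median of 949.5 bp and a minimum of 665 bp, and 19 of the 20 pairs had the same name at both centres. Older partners are left out of these pairs by definition. With L1 partners of any age, 48 young L1 peaks had their nearest one within 1500 bp, and some of those partners were older. Leaving grouping aside, young and other L1 peaks had similar distances to the nearest peak of any kind, with medians of 34307 bp (31481 to 39654 bp) and 34454.5 bp (33209 to 36047 bp).

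The young share of L1 peaks differed among chromosomes. It was 19.6% on chromosome 14 (66 of 337, 15.5 to 24.2%), 17.2% on chromosome 11 (80 of 464, 13.9 to 21.0%) and 16.9% on chromosome 8 (60 of 356, 13.1 to 21.2%), with intervals above the overall 12.8%. It was 1.72% on chromosome 19 (3 of 174, 0.357 to 4.96%), 6.47% on chromosome 17 (15 of 232, 3.66 to 10.4%) and 7.35% on chromosome 16 (15 of 204, 4.17 to 11.8%), and the intervals of chromosomes 7 and 21 were also below 12.8%. Chromosome 19 had 2.92 other L1 peaks per Mb, among the denser chromosomes, but only 0.0512 young ones, against a median of 0.287 over the 23 chromosomes. The X chromosome had 0.0513 young L1 peaks per Mb, yet it also had few other L1 peaks, and its young share was 16.0% (8 of 50, 7.17 to 29.1%). Chromosome 14 was densest with 0.618 per Mb. How many young L1 copies each chromosome carries, and in how many copies this cell line holds it, was not used here.

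**Figure D4:**
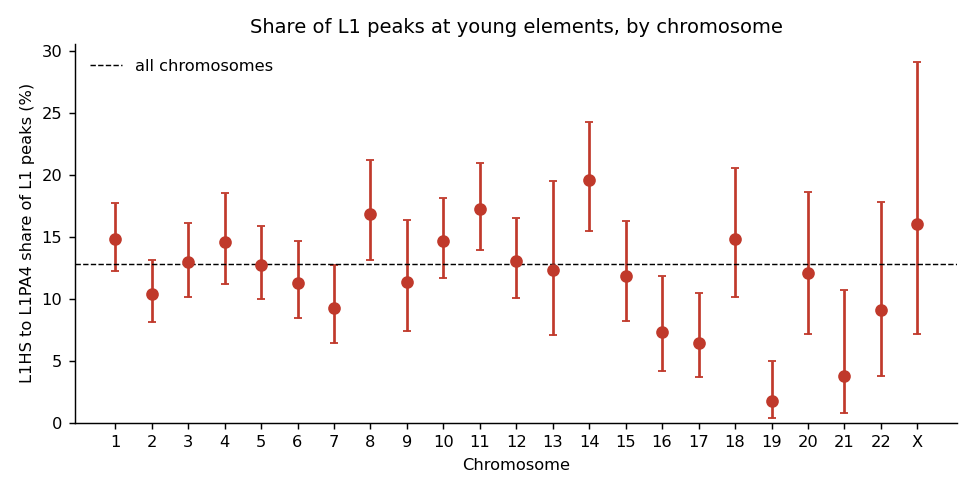
Share of L1 peaks that lay at L1HS to L1PA4, for each chromosome, with exact Clopper-Pearson 95% intervals and the share over all chromosomes (12.8%) as a dashed line. The intervals of chromosomes 8, 11 and 14 lie above the line and those of chromosomes 7, 16, 17, 19 and 21 below it.

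Within chromosomes the scores kept their order. The median young L1 score was lower than that of the other L1 peaks on 23 of 23 chromosomes, and so was the median width. On the 15 chromosomes with 20 or more young L1 peaks the gap in median score ran from 9 to 22. By windows of 5 Mb, the fullest was on chromosome 14 (25000001 to 30000000), with 15 young among 45 L1 peaks, followed by windows on chromosome 1 with 14 of 50 (85000001 to 90000000) and 13 of 42 (95000001 to 100000000). Young L1 peaks were present in 357 such windows, so the fullest held a small part of the whole.

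Genes that control L1 were examined for peaks of their own. The list had 62 genes of silencing, restriction and transcription of L1, of which 61 were matched among protein-coding genes on the chromosomes with peaks. A peak overlapping the 1 kb on either side of the start site was found at 16 of them (26.2%, 15.8 to 39.1%). By the same measure 15.5% of the 19974 protein-coding genes had one. This measure takes the edge of the peak, whereas the distances of L1 peaks above are from the peak centre. TASOR and MORC2, which act in the HUSH pathway of heterochromatin at young L1 copies, had peaks of 821 (chr3:56682243-56683930) and 213 (chr22:30968155-30969319). ATF7IP, a partner of the histone methyltransferase SETDB1, had 147, RNASEH2A, the catalytic subunit of ribonuclease H2, had 146, and EHMT2, a histone H3 lysine 9 methyltransferase, had 123. The other 11 had scores from 13 to 119, among them the DNA methylation genes DNMT1 (73) and UHRF1 (39) and the helicase gene MOV10 (53). No young L1 peak lay in, or was assigned to, a gene of this list. Intronic young L1 peaks lay in only 393 genes of any type, beside 19974 protein-coding genes on these chromosomes. Their absence from a list of 61 matched genes therefore gives no comparison. Among MTOR, RPTOR, RICTOR, PML, THAP11 and HCFC1 only RICTOR, the defining subunit of mTORC2, had a young L1 peak. It was an L1PA4 peak of score 76 in intron 2 (chr5:39039880-39040242), and a single peak in so short a list gives no comparison either.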

How the data were processed

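Peaks of the 1 mTOR ChIP library were called against input and annotated on hg38. Trimmomatic 0.36, BWA 0.7.12, Picard 2.0.1, MACS2 2.1.1.20160309 and HOMER 4.11.1 were used, per the submitters' processing notes, which name no settings. The threshold for peaks and the handling of duplicates and of multiply aligned reads are not stated, and their effect on peaks over near-identical L1 copies was not tested. The score is a whole number deposited by the authors, and distances to start sites are used as deposited. The library's depth is unknown.

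Young L1 peaks were rows of family L1 named L1HS, L1PA2, L1PA3 or L1PA4. Shares have exact Clopper-Pearson 95% intervals and medians have order-statistic intervals, which cover counting error only. Host genes and promoter counts used the gene table of GRCh38.p14, a later patch of the hg38 assembly. Members, gene list and tests were chosen with earlier results of these data known. The peaks named were the 10 highest scores, the first 2 of each subfamily, the 5 widest, the 5 nearest to a start site, the 10 genes with most intronic peaks and any in a listed gene. All 6 L1HS peaks and the groups of at least 3 peaks were added after values were seen. Functions were tested on simulated peaks. The tools were scipy 1.17.1, numpy 2.4.6, pandas 2.3.3 and matplotlib 3.10.9 under Python 3.11.15.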

Additional observations from a re-analysis of the deposited data

How the results depend on the processing

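Of 55 alternative values, 43 stayed within the 95% interval of the reported value or, for the control genes, within 1.5 times the count. The intergenic share, the complement of the intronic one, and runs that change only the reference group are not counted. All runs without chromosome 19 or X are among the 43. They left out so few young L1 peaks that their values could hardly move, so this count says little about robustness. With the higher-scoring part of all peaks (the upper 50%), the young share of L1 peaks was 7.63%, the median width 364 bp, the share with a neighbouring L1 peak 9.52% (other L1 peaks 4.90%, against 11.7% and 9.16% over all scores) and the count of control genes 9, where 7.45% of all protein-coding genes had a promoter peak. The share of L1 peaks was 6.65% without L1PA4 and 24.1% of primate L1 peaks. The share in the top 25% of scores was 5.34%, against 22.9% of the other L1 peaks. In the top 1% it was 0.107% (0.00270 to 0.593%), against 0.578%, and that interval includes the other L1 share. Among peaks of at most 400 bp the share in the top 10% was 0% (0 to 0.534%), against 0.111% of the other L1 peaks. That interval includes the other L1 share, so at this width the groups are not told apart by high scores. Within 1 kb and 50 kb of a start site lay 0% and 47.2%, against 0.141% and 56.25% of the other L1 peaks. Neighbouring L1 peaks within 3 kb and 20 kb were found for 7.90% and 21.9%, against 5.94% and 20.75% of the other L1 peaks. At 20 kb the young interval (19.3 to 24.7%) includes the other L1 share. In each alternative run, the young L1 value stayed on the same side of the reference group for each of the 9 measures compared. Of these the intronic and intergenic shares are complements. Leaving out chromosome 19 or X removed only 3 or 8 young L1 peaks, so those runs could hardly change side. The 1 kb run is largely set by the annotation. For the intronic, protein-coding and neighbour shares the intervals overlap in the main comparison. A kept side alone then neither shows nor excludes a difference. Among peaks of at most 400 bp the median score was 45, against 48 for the other L1 peaks, a smaller gap than over all widths. That limit on width, the comparison with L1PA5 to L1PA8 and the omission of chromosomes 11 and 14 (young share 12.1%) were chosen after seeing the data. No paired analysis was possible because there was 1 ChIP library. With 1 library, neither replicate error nor depth can be assessed.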
